A study of Rattus norvegicus with 60 samples.

Results

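The genes described here make, recycle and break down coenzyme A. They are Vnn1, Pank1, Pank2, Pank3, Pank4, Ppcs, Ppcdc, Coasy, Nudt7 and Nudt19, which were taken by gene name from the deposited count table, so 10 of its 32883 genes are members, each with 1 row. The samples are livers of 60 male Sprague-Dawley rats, with polyA-selected RNA sequenced as a stranded library from each rat. Perfluorooctanoic acid (PFOA), a perfluorinated surfactant that activates the nuclear receptor PPARα in rodents, was given in water by daily gavage at 1, 5 or 15 mg/kg, and vehicle rats were given water alone. Dosing lasted 7, 14 or 28 days, which gives 12 groups of 5 rats, each day with its own vehicle group. The sample records put the rats at 7 to 8 weeks of age on day 7, at 8 to 9 weeks on day 14 and at 10 to 11 weeks on day 28, while the design text gives an age of 5 to 6 weeks. Between days, length of dosing and age cannot be told apart, and each dose is set against vehicle rats of its own day.

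Coenzyme A carries acyl groups through fatty acid oxidation, lipid synthesis and the citric acid cycle, and hepatocytes hold a large pool of it. It is built from pantothenate, vitamin B5: pantothenate kinases (Pank1, Pank2 and Pank3) phosphorylate pantothenate and are restrained by coenzyme A and its thioesters, Ppcs adds cysteine, Ppcdc removes a carboxyl group, and Coasy carries out the closing steps. Nudt7 and Nudt19 are peroxisomal nudix hydrolases that cut coenzyme A, and Vnn1 is a membrane-anchored pantetheinase that splits pantetheine, a breakdown product of coenzyme A, into pantothenate and cysteamine. Vnn1 and Pank1 are known in mouse as genes that PPARα activates.

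The promoter windows below show what a search for the hexamer AGGTCA, the motif that PPARα and related nuclear receptors recognise as a pair of copies, found in these genes. Windows of 300 bases, from 250 before to 50 after the annotated start, came from RefSeq on build GRCr8, which is not the build of the counts (Rnor_6.0), and were matched by symbol for 7 members: Pank1, Pank2, Pank3, Ppcs, Coasy, Nudt7 and Nudt19. Both strands were searched for AGGTCA and for its direct repeat, a pair of copies of AGGTCA in the same direction with 1 base (N) between them, so each repeat also holds the hexamer. Of the matched members called higher after PFOA, Pank1 and Nudt7 had the most calls and are shown. Coasy and Nudt19 had fewer calls and are not shown. Ppcs is shown because its window holds the hexamer, which is in capitals. All windows shown are written 5′ to 3′ on the strand of the gene. Pank1 lies on the minus strand at chr1:241806414-241806713, Nudt7 on the plus strand at chr19:59034638-59034937 and Ppcs on the minus strand at chr5:138311764-138312063.
Pank1: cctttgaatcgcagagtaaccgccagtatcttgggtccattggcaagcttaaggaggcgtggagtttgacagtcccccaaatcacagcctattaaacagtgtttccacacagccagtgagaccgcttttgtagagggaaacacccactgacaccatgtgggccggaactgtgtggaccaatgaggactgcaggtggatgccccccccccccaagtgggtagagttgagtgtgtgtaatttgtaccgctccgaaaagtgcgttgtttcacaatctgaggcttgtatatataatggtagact
Nudt7: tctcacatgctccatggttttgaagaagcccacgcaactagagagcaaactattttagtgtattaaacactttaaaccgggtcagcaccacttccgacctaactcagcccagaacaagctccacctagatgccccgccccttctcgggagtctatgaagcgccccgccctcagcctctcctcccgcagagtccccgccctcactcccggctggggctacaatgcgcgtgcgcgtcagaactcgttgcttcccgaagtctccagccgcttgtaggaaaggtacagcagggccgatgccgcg
Ppcs: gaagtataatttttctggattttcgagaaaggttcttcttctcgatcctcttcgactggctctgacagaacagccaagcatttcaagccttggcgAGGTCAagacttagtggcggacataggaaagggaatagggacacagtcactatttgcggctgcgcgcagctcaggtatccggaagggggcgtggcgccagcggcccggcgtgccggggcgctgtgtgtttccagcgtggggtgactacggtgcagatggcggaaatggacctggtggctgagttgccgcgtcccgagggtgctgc
The Ppcs window holds AGGTCA 155 bases upstream of the start, on the strand printed, and these letters are not in the other 6 windows. AGGTCA is in 5415 of 33469 windows of the same length (16.2%) and the direct repeat in 18 of them (0.0538%), none of a member. At such shares, 7 windows are too few for the presence or absence of either motif to set the members apart. Exact letters within the 300 bases were searched, so inexact copies and sites farther from the start were not covered. The Pank1 window has 8 CpG dinucleotides and a GC content of 50.7%, the Nudt7 window 20 and 58.0%, and the Ppcs window 22 and 58.0%, against medians of 7 and 51.7% over the 33469 windows.

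Total counts ran from 7965497 to 24770119 per library with a median of 12606152. Levels are given as CPM, read counts relative to the TMM-scaled library size, and libraries are numbered 1 to 5 within a group. Reads per library ran from 357 to 20715 for Vnn1 (ENSRNOG00000016219, median 7601.5), from 1689 to 13130 for Pank1 (ENSRNOG00000018944, median 4768.5) and up to 8305 for Nudt7 (ENSRNOG00000011976, median 1351), and were fewest among the tested members for Pank2 (63 to 381, median 162) and Pank4 (64 to 250, median 126.5). A difference is a log2 fold change with its standard error (SE), and a gene was called at a Benjamini-Hochberg adjusted p under 0.05 over the 12167 genes tested by edgeR's quasi-likelihood test. Libraries of a group also differed along a shared axis that holds 51.2% of the variance within groups. A library score along it, signed so that ribosomal protein genes go down, lay below -1.5 in 3 libraries, which were 5 mg/kg library 1 on day 7, 5 mg/kg library 5 on day 14 and 15 mg/kg library 3 on day 14. The mean score differed between a dose and its vehicle group by -0.566 to 1.08, with a smallest exact permutation p of 0.103 (two-sided, n = 5 and 5, adjusted p = 0.5 over 9 comparisons). Hepatocyte markers were abundant in each library, with a summed level of 59111 to 126519 CPM at 15 mg/kg on day 14 and 121702 to 185815 CPM in vehicle livers of that day.

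At least 1 of the 9 tested members was called higher at each dose and on each day, and at 1 mg/kg on day 7 that was Vnn1 alone. No member was called lower. The share of all genes tested called lower at 1, 5 and 15 mg/kg was 0.0247%, 2.87% and 7.21% on day 7. It was 2.95%, 5.27% and 10.2% on day 14, and 1.38%, 4.85% and 8.31% on day 28. At such shares, 9 members are too few for an absence of lower calls in a single comparison to set them apart. The gene called most often was Vnn1, which was higher in 9 of 9 comparisons with vehicle, followed by Pank1 in 7, Nudt7 in 5, Coasy in 3 and Nudt19 in 1. Pank2, Pank3, Pank4 and Ppcs were not called at any dose. Ppcdc had 1 read in 1 of the 60 libraries and was not tested, so counts below are of 9 members. A second row of the table, NEWGENE_1306267, carries the same description, phosphopantothenoylcysteine decarboxylase, and had 0 to 12 reads per library (median 3), too few to be tested.

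On day 7 the number of members called higher was 1 at 1 mg/kg (background 0.0904% of all genes tested), 3 at 5 mg/kg (background 3.27%) and 4 at 15 mg/kg (background 6.77%). On day 14 it was 2 at 1 mg/kg (3.76%), 3 at 5 mg/kg (5.47%) and 4 at 15 mg/kg (12.7%). On day 28 it was 2 at 1 mg/kg (1.85%), 3 at 5 mg/kg (5.63%) and 3 at 15 mg/kg (8.89%). The median log2 fold change of the members was 0.24, 0.19 and 0.24 at 1, 5 and 15 mg/kg on day 7, 0.17, 0.40 and 0.58 on day 14, and 0.31, 0.44 and 0.49 on day 28, while that of all genes tested stayed within 0.04 of 0. The 3 doses of a day share their 5 vehicle livers, so their values stand side by side and are not independent. At 15 mg/kg on day 7, the count was 2 without a filter on low counts, 2 with only that day's libraries in the fit, and 2 without vehicle library 1, vehicle library 5 or 15 mg/kg library 4. At 1 mg/kg on day 14 it was 1 with only that day's libraries, and 1 without vehicle library 4 or 1 mg/kg library 2.

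**Figure D1:**
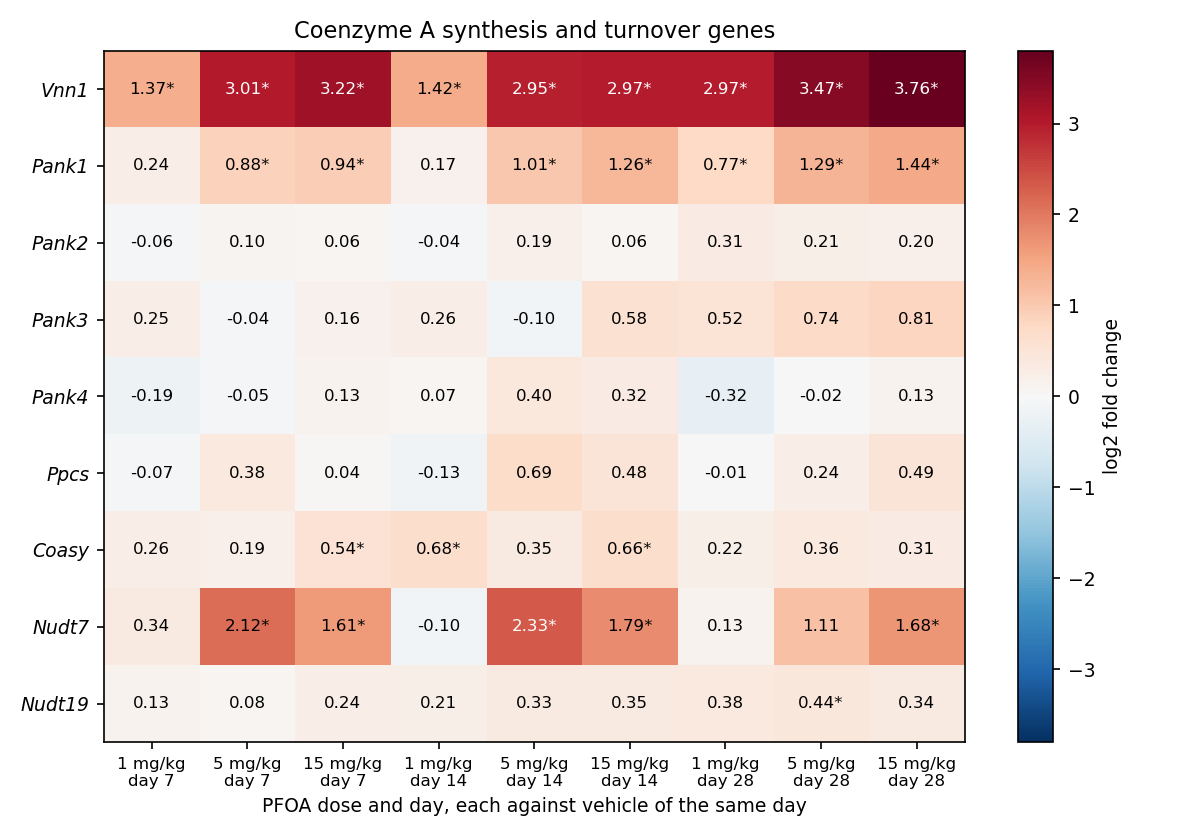
Log2 fold change of the 9 tested members (rows) in the 9 comparisons of a PFOA dose with vehicle of the same day (columns). Colour and printed value give the fold change, and an asterisk marks an adjusted p under 0.05. The rows of Vnn1, with values of 1.37 to 3.76, and Pank1, with values of 0.17 to 1.44, hold 16 of the 25 asterisks.

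Vnn1, the pantetheinase, had the largest fold changes of the members. On day 7 it stood at 175.1, 121.7, 103.8, 103.7 and 65.6 CPM in vehicle livers and at 281.7, 292.8, 369.5, 277.7 and 250.1 CPM at 1 mg/kg. The 5 mg/kg livers of that day had 1006.4, 648.7, 1037.6, 937.9 and 947.2 CPM, and the 15 mg/kg livers 1257.1, 883.2, 1050.5, 1108.1 and 994.4 CPM. Each of the 3 dosed groups lay wholly above the vehicle livers, and the 5 and 15 mg/kg groups overlapped. The log2 fold change was 1.37 ± 0.22 at 1 mg/kg (adjusted p = 0.000263), 3.01 ± 0.23 at 5 mg/kg (adjusted p = 2.75e-14) and 3.22 ± 0.23 at 15 mg/kg (adjusted p = 3.51e-15).

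On day 14, Vnn1 stood at 130.2, 157.4, 139.0, 136.0 and 77.7 CPM in vehicle livers and at 330.1, 338.9, 335.8, 352.3 and 355.9 CPM at 1 mg/kg. The 5 mg/kg livers had 946.2, 903.0, 922.2, 765.0 and 1425.5 CPM, and the 15 mg/kg livers 854.6, 964.5, 1445.9, 874.1 and 887.0 CPM. The 1 mg/kg livers were tightly grouped, above the vehicle livers and below the 5 mg/kg livers without overlap. The high 5 mg/kg library is library 5 and the high 15 mg/kg library is library 3, which are among the 3 libraries of low score. The log2 fold change was 1.42 ± 0.22 at 1 mg/kg (adjusted p = 3.91e-05), 2.95 ± 0.23 at 5 mg/kg (adjusted p = 3.36e-14) and 2.97 ± 0.23 at 15 mg/kg (adjusted p = 3.24e-14).

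On day 28, Vnn1 stood at 38.0, 108.7, 39.7, 68.8 and 64.5 CPM in vehicle livers and at 573.2, 428.5, 618.5, 516.1 and 361.0 CPM at 1 mg/kg. At 5 mg/kg it stood at 700.5, 800.0, 749.3, 555.1 and 728.0 CPM, and at 15 mg/kg at 960.8, 944.5, 830.9, 693.4 and 910.2 CPM. The vehicle livers again lay wholly below each dosed group, while neighbouring doses overlapped. The log2 fold change was 2.97 ± 0.23 at 1 mg/kg (adjusted p = 8.92e-14), 3.47 ± 0.24 at 5 mg/kg (adjusted p = 2.62e-16) and 3.76 ± 0.24 at 15 mg/kg (adjusted p = 1.46e-17). Each of the 9 Vnn1 calls held in each refit that left out 1 library of the groups compared and under each alternative setting tried.

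**Figure D2:**
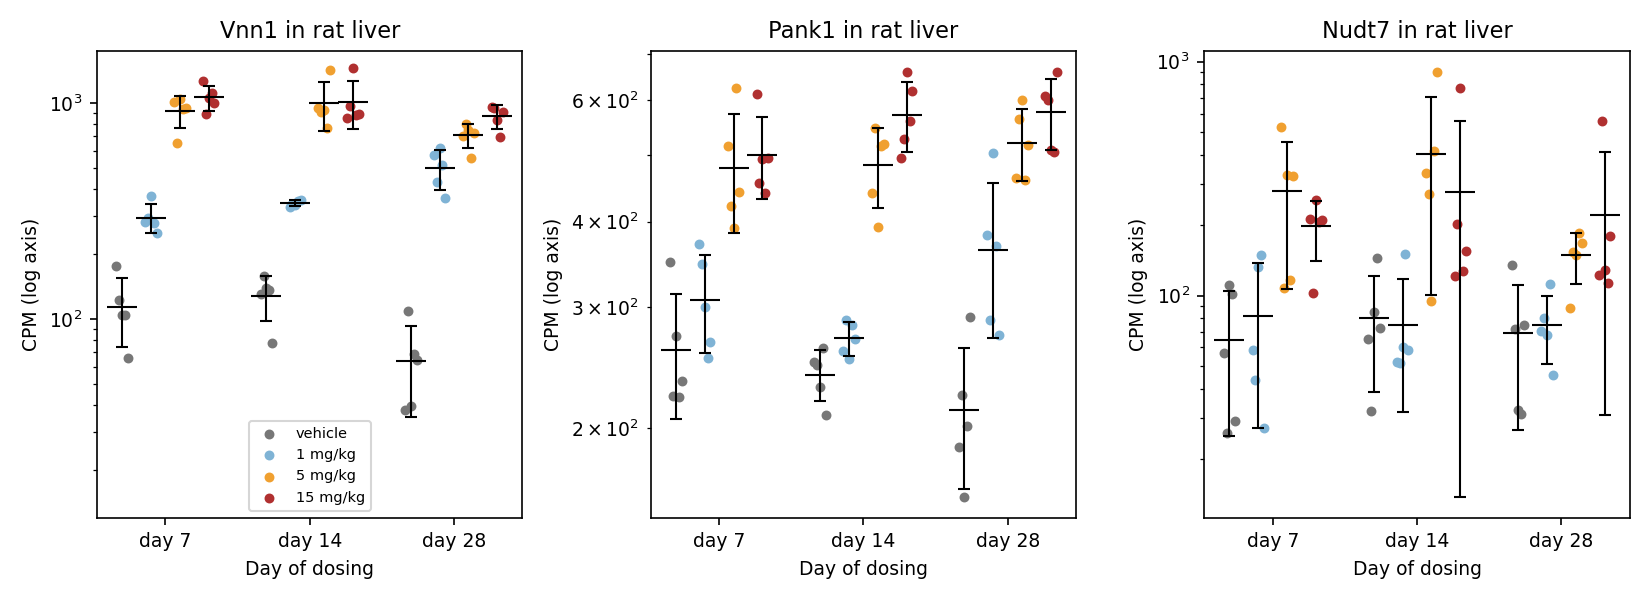
Levels of Vnn1, Pank1 and Nudt7 in CPM on log axes by day of dosing, with vehicle, 1, 5 and 15 mg/kg from left to right within a day. Points are single rats (5 a group), horizontal bars are means and error bars are SD. The lower bar of Nudt7 at 15 mg/kg on day 14 is cut short because its SD (280.1 CPM) exceeds its mean (276.1 CPM). Vnn1 at 5 and 15 mg/kg sits between 555 and 1446 CPM, and no vehicle liver exceeds 175.1 CPM.

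Between doses, the step from 1 to 5 mg/kg in Vnn1 passed the test on days 7 and 14 and not on day 28, and whether the step differed between days was not tested. With 5 mg/kg set against 1 mg/kg, the log2 difference was 1.64 ± 0.22 on day 7 (adjusted p = 2.43e-06), 1.53 ± 0.22 on day 14 (adjusted p = 1.05e-05) and 0.50 ± 0.22 on day 28 (adjusted p = 0.545). With 15 mg/kg set against 5 mg/kg it was 0.21 on day 7 (95% interval -0.22 to 0.64), 0.02 on day 14 (-0.41 to 0.45) and 0.30 on day 28 (-0.14 to 0.73), and none of these passed the test. A change of the effect against vehicle between days was tested. The effect of 1 mg/kg was larger on day 28 than on day 7 by 1.6 ± 0.31 (adjusted p = 0.0106), in a comparison that called 7 genes higher (background 0.0575%). Without vehicle library 1 of day 7 this difference was 1.39 (adjusted p = 0.0503), and with the library score in the model it was 1.69 (adjusted p = 0.000518, background 0.181%). From day 7 to day 14 the effect of 1 mg/kg changed by 0.05 ± 0.31, which did not pass the test (adjusted p = 0.943). For 5 mg/kg the difference between days 28 and 7 was 0.46 ± 0.31 (adjusted p = 0.469) and for 15 mg/kg 0.55 ± 0.31 (adjusted p = 0.997).

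The levels behind this difference were higher in 1 mg/kg livers and lower in vehicle livers on day 28 than on day 7. Vnn1 averaged 499 ± 105 CPM at 1 mg/kg on day 28 and 294 ± 44.8 CPM at 1 mg/kg on day 7, while vehicle livers averaged 63.9 ± 28.7 CPM on day 28 and 114 ± 39.8 CPM on day 7 (SD, n = 5 each). The vehicle livers of the 2 days differed by -0.83 ± 0.22 on the log2 scale, which did not pass the test (adjusted p = 0.249, background 0.0411%). With the library score in the model that difference was -0.85 (adjusted p = 0.0294, background 0.888%), and without vehicle library 2 of day 28 it was -1.07 (adjusted p = 0.0225).

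**Figure D3:**
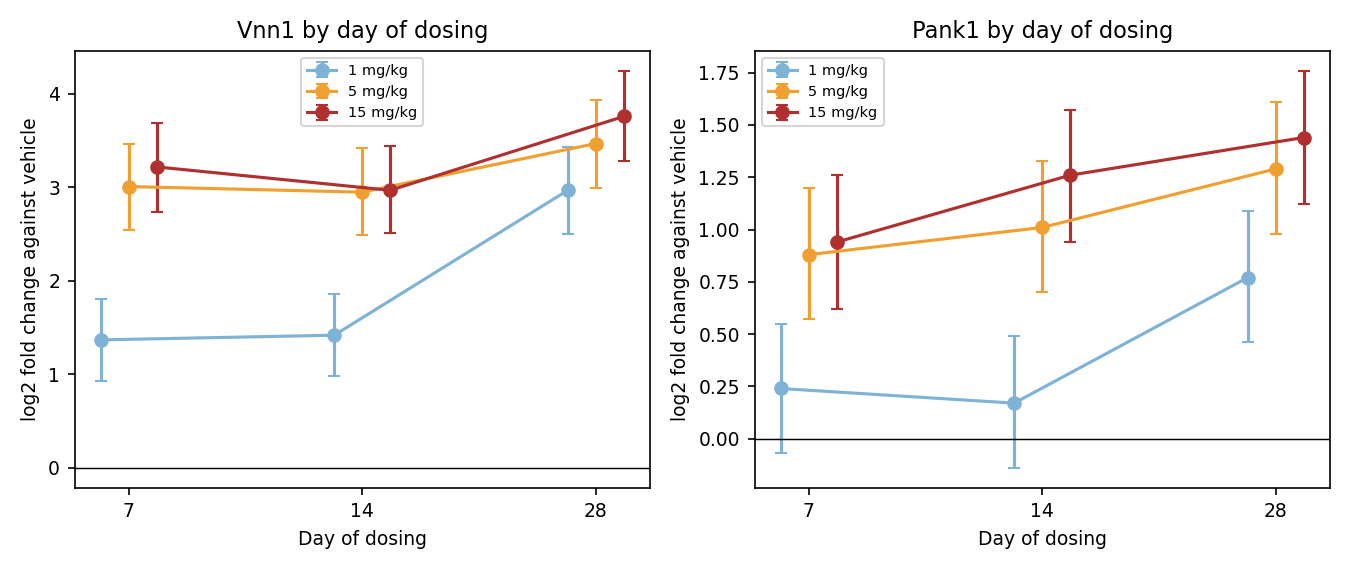
Log2 fold change of Vnn1 (left) and Pank1 (right) against vehicle of the same day, by day of dosing. Points are estimates for 1, 5 and 15 mg/kg and bars are 95% intervals. For Vnn1 the 1 mg/kg point lies at 1.37 on day 7, 1.42 on day 14 and 2.97 on day 28, while the 5 and 15 mg/kg points lie between 2.95 and 3.76.

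Among the kinases that start the pathway, Pank1 was the one called. On day 7 it stood at 349.5, 222.7, 272.5, 222.0 and 234.2 CPM in vehicle livers and at 370.4, 346.4, 300.1, 253.1 and 267.5 CPM at 1 mg/kg. The 5 mg/kg livers had 515.9, 420.9, 391.5, 626.1 and 441.6 CPM, and the 15 mg/kg livers 613.4, 454.8, 492.9, 440.1 and 494.4 CPM. The 1 mg/kg group overlapped the vehicle group, and the higher doses lay above both. The log2 fold change was 0.24 ± 0.16 at 1 mg/kg (adjusted p = 1), 0.88 ± 0.16 at 5 mg/kg (adjusted p = 0.000113) and 0.94 ± 0.16 at 15 mg/kg (adjusted p = 1.74e-05).

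On day 14, Pank1 stood at 249.6, 247.5, 230.1, 261.7 and 209.1 CPM in vehicle livers and at 258.9, 287.6, 252.3, 282.8 and 270.3 CPM at 1 mg/kg. The 5 mg/kg livers had 440.0, 548.0, 393.4, 515.9 and 519.3 CPM, and the 15 mg/kg livers 494.4, 528.0, 660.1, 559.8 and 618.5 CPM. The 1 mg/kg livers again overlapped the vehicle livers, and the 5 and 15 mg/kg livers lay above both groups. The log2 fold change was 0.17 ± 0.16 at 1 mg/kg (adjusted p = 0.434), 1.01 ± 0.16 at 5 mg/kg (adjusted p = 5.51e-06) and 1.26 ± 0.16 at 15 mg/kg (adjusted p = 3.81e-08).

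On day 28, Pank1 stood at 188.0, 223.9, 159.2, 201.4 and 290.1 CPM in vehicle livers and at 382.8, 287.2, 503.9, 369.1 and 273.1 CPM at 1 mg/kg. At 5 mg/kg it stood at 462.7, 564.0, 601.1, 459.6 and 516.7 CPM, and at 15 mg/kg at 609.0, 601.6, 509.0, 504.2 and 659.5 CPM. At 1 mg/kg libraries 2 and 5 lay within reach of the highest vehicle liver, and the groups at 5 and 15 mg/kg cleared it. Pank1 rose at each dose, by 0.77 ± 0.16 at 1 mg/kg (adjusted p = 0.00159), 1.29 ± 0.16 at 5 mg/kg (adjusted p = 3.06e-08) and 1.44 ± 0.16 at 15 mg/kg (adjusted p = 1.51e-09). The larger 1 mg/kg effect on day 28 than on day 7, by 0.53 ± 0.22, did not pass the test (adjusted p = 0.809). The 7 Pank1 calls against vehicle held in each refit that left out 1 library and under each alternative setting tried.

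Pank1 was higher at 5 than at 1 mg/kg on day 7 by 0.64 ± 0.16 (adjusted p = 0.0137) and on day 14 by 0.84 ± 0.16 (adjusted p = 0.000507). On day 28 that step was 0.52 ± 0.16 (adjusted p = 0.167), and 0.66 (adjusted p = 0.0258) without 1 mg/kg library 3. With 15 set against 5 mg/kg the difference was 0.06 on day 7 (95% interval -0.25 to 0.37), 0.24 on day 14 (-0.07 to 0.56) and 0.15 on day 28 (-0.17 to 0.46). Over the 6 steps between doses, the members called were 2 from 1 to 5 mg/kg on day 7 (background in either direction 2.38%), 3 on day 14 (12.1%) and 0 on day 28 (0.329%), each higher at 5 mg/kg. From 5 to 15 mg/kg edgeR called 0 members on day 7 (background 0.329%), day 14 (0%) and day 28 (0.0411%), 0 had an unadjusted p under 0.05, and DESeq2 size factors gave 0 calls as well. For 5 against 1 mg/kg on day 28, 2 members had an unadjusted p under 0.05 (Vnn1 and Pank1) and DESeq2 size factors gave 0 calls. The member called on day 14 beside Vnn1 and Pank1 was Nudt7, by 2.43 ± 0.57 (adjusted p = 0.00536), and by 1.90 (adjusted p = 0.0507) without 5 mg/kg library 5. The count on day 14 was 5 without 5 mg/kg library 3. Ppcs had a step of 0.82 on day 14 (adjusted p = 0.0508), which was 0.88 (adjusted p = 0.0448) with DESeq2 size factors, 0.91 (adjusted p = 0.0283) without 1 mg/kg library 4 and 0.96 (adjusted p = 0.0172) without 5 mg/kg library 3. Nudt7 had a step of 1.77 on day 7 (adjusted p = 0.0788), which was 2.10 (adjusted p = 0.0429) without 1 mg/kg library 4 and 2.0 (adjusted p = 0.0476) without 5 mg/kg library 2. With the library score in the model 2 members were called on day 28 (background 3.72%).

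The other pantothenate kinase genes were not called. Pank3, an enzyme of the cytosol, averaged 73.2 ± 21.1 CPM at 15 mg/kg and 41.7 ± 13.2 CPM in vehicle livers on day 28 (SD, n = 5 each), a log2 fold change of 0.81 ± 0.35 (adjusted p = 0.104). Its level followed the library score within groups (r = 0.91 over 60 libraries), and with the score in the model the fold change on day 28 was 0.51 at 15 mg/kg (adjusted p = 0.00541) and 0.42 at 5 mg/kg (adjusted p = 0.0328). With only the libraries of day 28 in the fit it was 0.82 (adjusted p = 0.0153) at 15 mg/kg and 0.74 (adjusted p = 0.0386) at 5 mg/kg. Pank2, whose human protein works in mitochondria, averaged 11.4 to 14.2 CPM over the 12 groups, with fold changes of -0.06 to 0.31. Pank4, which lacks kinase activity and acts as a phosphatase on phosphopantetheine, averaged 8.71 ± 0.594 CPM at 1 mg/kg and 10.9 ± 1.45 CPM in vehicle livers on day 28, the one case of a member wholly below its vehicle group (background 2.05%), and it was not called there (-0.32 ± 0.15, adjusted p = 0.192). At 5 mg/kg on day 14 the Pank4 difference was 0.40 (adjusted p = 0.0784), and 0.50 (adjusted p = 0.0314) without 5 mg/kg library 3. With the library score in the model Pank4 passed the test on day 14 at 5 mg/kg (0.34, adjusted p = 0.0212) and at 15 mg/kg (0.42, adjusted p = 0.00282).

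The share of Pank1 among the reads of the 4 Pank genes was set between doses without a test. At 15 mg/kg it averaged 85.9% ± 3.34, 86.3% ± 3.23 and 85.3% ± 3.19 on days 7, 14 and 28, against 77.6% ± 7.95, 78.6% ± 2.58 and 76.2% ± 6.92 in vehicle livers (SD, n = 5 each). On day 14 the groups did not overlap, with 83.2% to 91.8% at 15 mg/kg and 74.1% to 80.5% in vehicle livers, and on days 7 and 28 they overlapped. The share averaged 79.1%, 78.6% and 80.9% at 1 mg/kg and 86.6%, 87.6% and 84.8% at 5 mg/kg on days 7, 14 and 28. Pank3, which counts in the total, followed the library score within groups (r = 0.91), and the part of the score in the shares was not tested. These shares of reads depend on gene length and are set against each other between groups, not between genes.

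Of the enzymes in the middle and at the end of the pathway, Coasy rose in 3 comparisons and Ppcs in none. On day 7 Coasy stood at 50.2, 67.0, 48.2, 54.1 and 49.5 CPM at 15 mg/kg, against 40.0, 43.4, 34.1, 30.3 and 37.6 CPM in vehicle livers. The groups did not overlap, and the log2 fold change was 0.54 ± 0.18 (adjusted p = 0.0331). This call was lost without vehicle library 1, 3, 4 or 5 or without 15 mg/kg library 2 or 4, with fold changes of 0.43 to 0.55 and adjusted p of 0.0546 to 0.128. It was also lost without a filter on low counts (0.56, adjusted p = 0.0693) and with only that day's libraries (0.52, adjusted p = 0.129).

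On day 14 Coasy stood at 56.9, 64.0, 63.0, 44.0 and 55.0 CPM at 1 mg/kg and at 70.8, 56.9, 35.0, 59.3 and 56.7 CPM at 15 mg/kg, against 38.1, 40.7, 36.0, 25.6 and 36.4 CPM in vehicle livers. The 1 mg/kg livers lay above each vehicle liver, and at 15 mg/kg library 3, one of low library score, lay among the vehicle livers. Coasy rose by 0.68 ± 0.18 at 1 mg/kg (adjusted p = 0.0184) and by 0.66 ± 0.18 at 15 mg/kg (adjusted p = 0.00526). The 1 mg/kg call was lost without vehicle library 4 (0.58, adjusted p = 0.0901) or 1 mg/kg library 2 (0.64, adjusted p = 0.0586) and with only that day's libraries (0.68, adjusted p = 0.0503). The mean library score was higher at 1 mg/kg than in vehicle livers of that day by 1.08, and Coasy followed the score within groups (r = 0.78). With the score in the model the 1 mg/kg difference was 0.44 (adjusted p = 0.0087). Coasy at 5 mg/kg was not called on day 7 (0.19), day 14 (0.35) or day 28 (0.36). With the score in the model it passed the test at 5 mg/kg on day 7 (0.31, adjusted p = 0.0425) and day 14 (0.42, adjusted p = 0.00299).

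Ppcs ranged from 54.9 to 305 CPM over the 60 libraries and ran against the library score within groups (r = -0.82). Its fold changes against vehicle lay between -0.13 and 0.69, and the largest, at 5 mg/kg on day 14, had an SE of 0.29 (adjusted p = 0.12). With the library score in the model Ppcs passed the test at 5 mg/kg on day 14 (0.52, adjusted p = 0.0101) and day 28 (0.55, adjusted p = 0.00838), and at 15 mg/kg on day 14 (0.68, adjusted p = 0.00056) and day 28 (0.73, adjusted p = 0.00025).

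Nudt7, the peroxisomal coenzyme A hydrolase, rose at 5 mg/kg on days 7 and 14 and at 15 mg/kg on each day, with a wide spread between livers. On day 7 it stood at 56.6, 25.9, 111.3, 101.2 and 29.0 CPM in vehicle livers and at 58.4, 43.6, 132.5, 149.1 and 27.0 CPM at 1 mg/kg. The 5 mg/kg livers had 524.0, 107.9, 329.1, 116.5 and 324.3 CPM, and the 15 mg/kg livers 212.5, 102.4, 256.5, 205.7 and 211.3 CPM. Both higher doses still overlapped the vehicle livers, at their lowest libraries. Nudt7 rose by 2.12 ± 0.56 at 5 mg/kg (adjusted p = 0.0128) and by 1.61 ± 0.55 at 15 mg/kg (adjusted p = 0.0416). The 5 mg/kg call was lost without vehicle library 2 or 5 or without 5 mg/kg library 1, with differences of 1.76 to 1.94 and adjusted p of 0.0521 to 0.0666. The 15 mg/kg call was lost without vehicle library 1, 2 or 5 or without 15 mg/kg library 1, 3, 4 or 5, with differences of 1.40 to 1.58 and adjusted p of 0.067 to 0.113, and in 3 other settings, with an adjusted p of 0.0521 with DESeq2 size factors, 0.0562 without a filter on low counts and 0.0716 with only that day's libraries.

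On day 14, Nudt7 stood at 65.1, 32.0, 85.4, 145.1 and 72.9 CPM in vehicle livers and at 52.1, 51.2, 60.4, 151.0 and 58.4 CPM at 1 mg/kg. At 5 mg/kg it stood at 333.2, 271.7, 94.3, 414.7 and 903.2 CPM, and at 15 mg/kg at 120.8, 202.7, 773.9, 127.7 and 155.7 CPM. Single libraries stood out here, 1 mg/kg library 4 at 151 CPM, 5 mg/kg library 5 at 903 CPM and 15 mg/kg library 3 at 774 CPM, and the libraries at 903 and 774 CPM are of low library score. Each dosed group overlapped the vehicle livers. Nudt7 rose by 2.33 ± 0.57 at 5 mg/kg (adjusted p = 0.00347), a call kept in each refit without 1 library. It rose by 1.79 ± 0.56 at 15 mg/kg (adjusted p = 0.0155), where the difference was 0.92 (adjusted p = 0.17) without library 3 of that dose and 0.91 (adjusted p = 0.155) without the 3 libraries of low score.

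On day 28, Nudt7 stood at 134.5, 72.0, 32.3, 31.0 and 74.5 CPM in vehicle livers and at 70.6, 80.2, 67.5, 112.0 and 45.5 CPM at 1 mg/kg. At 5 mg/kg it stood at 88.2, 153.0, 149.1, 185.9 and 167.6 CPM, and at 15 mg/kg at 121.9, 554.8, 128.8, 113.6 and 180.5 CPM. The groups at 5 and 15 mg/kg lay mostly above the vehicle livers, of which library 1 reached into them. The 15 mg/kg difference passed the test (1.68 ± 0.56, adjusted p = 0.0283) and the 5 mg/kg difference did not (1.11 ± 0.55, adjusted p = 0.204). The 15 mg/kg call was lost without vehicle library 2, 3, 4 or 5, with differences of 1.48 to 1.70 and adjusted p of 0.0505 to 0.075, and without 15 mg/kg library 2 the difference was 0.99 (adjusted p = 0.175).

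Nudt7 was the member that ran most closely with the library score, with a correlation of -0.97 within groups over 60 libraries and a within-group SD of 0.87 on the log2 scale. The score is shared by all genes of a library, so this is a description. With the score in the model, the share of all genes tested called in either direction was 18.5% and 39.2% at 5 and 15 mg/kg on day 7, 12.7%, 31.5% and 42.1% at 1, 5 and 15 mg/kg on day 14, and 7.68%, 25.6% and 35.6% on day 28. With the score in the model the Nudt7 differences at 1, 5 and 15 mg/kg were 0.41, 1.61 and 1.78 on day 7, 0.86, 1.87 and 2.11 on day 14, and 1.19, 1.88 and 2.11 on day 28. Those at 5 and 15 mg/kg passed the test on each day, and those at 1 mg/kg passed on day 14 (adjusted p = 5.89e-05) and day 28 (adjusted p = 3.92e-08). Without the score the 1 mg/kg differences were 0.34 ± 0.54, -0.10 ± 0.54 and 0.13 ± 0.54 on days 7, 14 and 28. The part that the library score has in any of these differences was not tested.

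**Figure D4:**
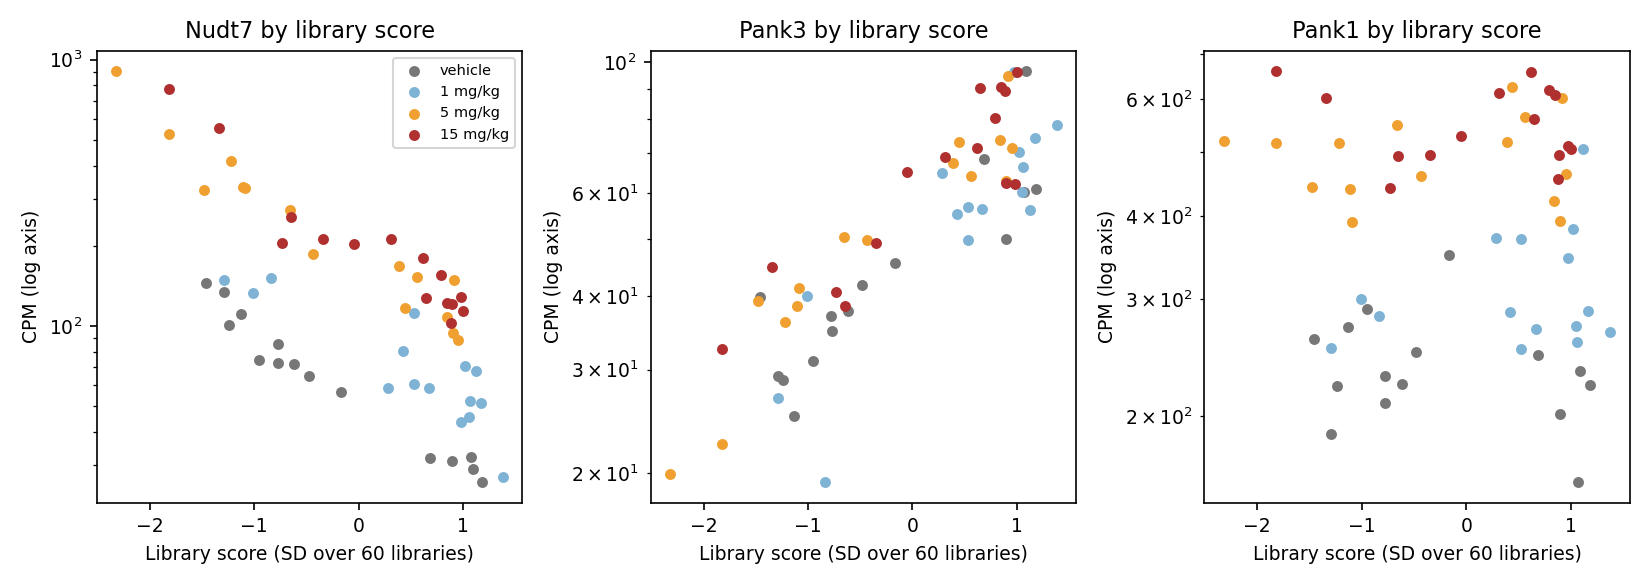
Levels of Nudt7, Pank3 and Pank1 in CPM on log axes against the library score, in SD over the 60 libraries. Each point is 1 library, coloured by dose over the 3 days. Nudt7 falls and Pank3 climbs along the score within each dose (within-group r of -0.97 and 0.91), while Pank1 shows little slope (-0.13). The Pank1 points at 5 and 15 mg/kg lie above the vehicle points and overlap each other. Those at 1 mg/kg overlap the points of vehicle and of both higher doses.

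Nudt19, the other peroxisomal hydrolase, was called once. On day 28 it stood at 20.7, 25.8, 27.0, 22.2 and 24.6 CPM at 5 mg/kg, against 15.7, 20, 17.9, 16.2 and 18.7 CPM in vehicle livers. The groups did not overlap, and the difference was 0.44 ± 0.15 (adjusted p = 0.0418). The call was lost without vehicle library 1, 3, 4 or 5 or without 5 mg/kg library 2, 3 or 5, with differences of 0.39 to 0.46 and adjusted p of 0.0605 to 0.144, and with DESeq2 size factors (adjusted p = 0.0561) or no filter on low counts (adjusted p = 0.0689). Fold changes in the other 8 comparisons lay between 0.08 and 0.38, among them 0.35 at 15 mg/kg on day 14 (adjusted p = 0.0788), which was 0.43 (adjusted p = 0.0456) without 15 mg/kg library 5. With the library score in the model Nudt19 passed the test at 15 mg/kg on day 14 (0.36, adjusted p = 0.0342) and day 28 (0.35, adjusted p = 0.0456). The ratio of Nudt7 to Nudt19 reads within a library had medians of 8.44, 8.80 and 5.27 at 15 mg/kg on days 7, 14 and 28, against 2.45, 4.12 and 3.60 in vehicle livers. The groups overlapped on each day, with 5.58 to 11.6 at 15 mg/kg and 1.39 to 6.97 in vehicle livers on day 7. At 5 mg/kg the medians were 15.9, 13.7 and 5.93 on days 7, 14 and 28, and at 1 mg/kg 3, 2.58 and 3.4. Within groups, Nudt7 ran against the library score (r = -0.97) and Nudt19 showed little relation to it (r = -0.04). The ratio was not tested, nor was the part of the score in it.

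Members whose dosed livers lay wholly above the vehicle livers numbered 1 at 1 mg/kg (background 0.485%), 2 at 5 mg/kg (2.38%) and 3 at 15 mg/kg (5.19%) on day 7. On day 14 there were 2 at 1 mg/kg (4.52%), 2 at 5 mg/kg (3.85%) and 2 at 15 mg/kg (6.78%). On day 28 there were 2 at 1 mg/kg (3.08%), 3 at 5 mg/kg (4.40%) and 2 at 15 mg/kg (5.84%). Vnn1 was among them each time, and Pank1 each time at 5 and 15 mg/kg.

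Across the 12 group means of log2 CPM, the 5 genes whose pattern was most like that of Vnn1 were Pex11a (r = 0.988), Nceh1 (0.988), Cyp2b1 (0.986), Prrg4 (0.984) and Cr1l (0.984). Those most like Pank1 were Me1 (r = 0.984), Oscar (0.983), Rtn4 (0.981), Cpt1b (0.977) and Adcy10 (0.976). Those most like Nudt7 were Ndufa3 (r = 0.99), Miox (0.989), Chchd6 (0.988), Bbs2 (0.985) and AABR07049790.1 (0.983). The points are group means that share libraries, dose order and the library score. Among the members themselves, the group means of Vnn1 and Pank1 correlated at 0.94, those of Pank1 and Nudt7 at 0.88 and those of Pank3 and Ppcs at -0.06.

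Other genes that move coenzyme A and its precursors were read from a list of 11, of which 10 were found and tested (Ado was not found by symbol). At 15 mg/kg, 2 were called higher and 1 lower on day 7 (background 6.77% higher and 7.21% lower), 5 higher and 2 lower on day 14 (12.7% and 10.2%), and 3 higher and 2 lower on day 28 (8.89% and 8.31%). The median fold change of the list was 0.13, 0.52 and 0.49 on those days, against -0.03, 0.04 and -0.01 over all genes tested. Slc25a42, the carrier that brings coenzyme A into mitochondria, rose on each day, to 50.7 ± 7.27, 67.8 ± 19.2 and 82.8 ± 24.6 CPM at 15 mg/kg, against 21.8 ± 6.26, 21.0 ± 10.6 and 26.6 ± 12.9 CPM in vehicle livers (SD, n = 5 each). Its fold changes were 1.22 ± 0.32 (adjusted p = 0.00496), 1.69 ± 0.32 (adjusted p = 7.95e-05) and 1.64 ± 0.32 (adjusted p = 0.000116). Vnn3, a relative of Vnn1, rose by 0.66 ± 0.23, 1.08 ± 0.23 and 0.64 ± 0.23. Slc25a16, a mitochondrial carrier that has been linked to coenzyme A transport, fell on each day, by 0.54 ± 0.12, 0.69 ± 0.12 and 0.61 ± 0.12, to 46.8 ± 5.80, 44.6 ± 4.36 and 41.4 ± 4.02 CPM at 15 mg/kg, against 68.1 ± 4.86, 71.9 ± 4.40 and 63.1 ± 7.92 CPM in vehicle livers.

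The other genes of this list are named after their values were seen. Their fold changes are given at 15 mg/kg unless stated, and at that dose days not given were not called. Slc25a17, the peroxisomal carrier of coenzyme A, rose by 0.45 ± 0.17 on day 14 (adjusted p = 0.0465) and by 0.64 ± 0.17 on day 28 (adjusted p = 0.00514). Slc5a6, the transporter that takes up pantothenate, rose by 0.60 ± 0.13 on day 14 (adjusted p = 0.000494). Csad and Cdo1 act on cysteine on its way to taurine: Csad rose by 1.23 ± 0.36 on day 14 (adjusted p = 0.00891), while Cdo1 fell by 1.55 ± 0.50 on day 14 (adjusted p = 0.0202) and by 1.54 ± 0.50 on day 28 (adjusted p = 0.0263). At 1 mg/kg on day 14 Csad was also called higher (1.17 ± 0.35, adjusted p = 0.0384). The kinase Dcakd, the hydrolase Nudt8 and the transferase Aasdhppt were not called at any dose.

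**Figure D5:**
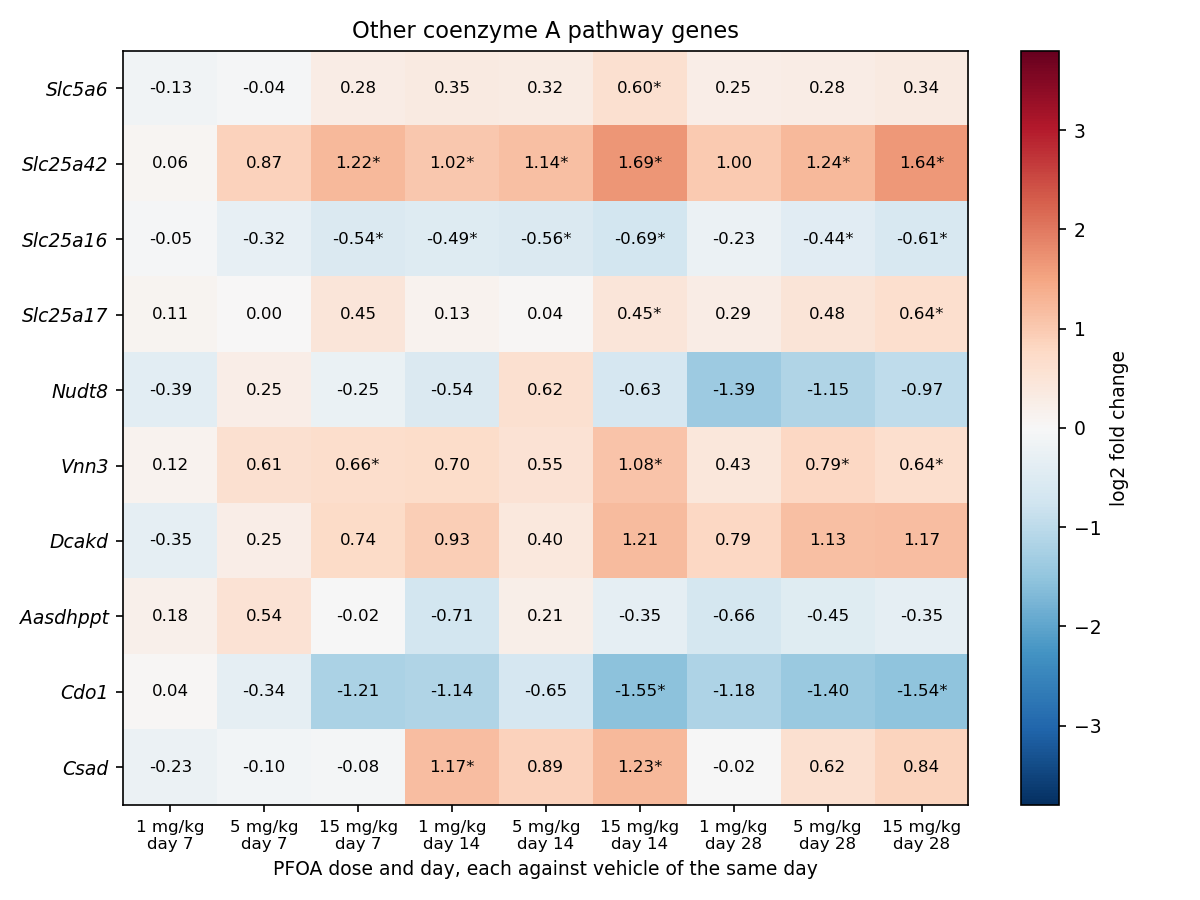
Log2 fold change of 10 further genes of coenzyme A transport and metabolism (rows) in the 9 comparisons of a PFOA dose with vehicle of the same day (columns). Colour and printed value give the fold change, and an asterisk marks an adjusted p under 0.05. Slc25a42 reaches 1.69 and Slc25a16 -0.69 at 15 mg/kg on day 14.

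Acyl-CoA synthetases, which join coenzyme A to fatty and other acids, were read from a list of 16, of which 15 were found and 14 tested. At 15 mg/kg, 4 were called higher and 2 lower on day 7, 6 higher and 3 lower on day 14, and 4 higher and 3 lower on day 28, with the background shares given above for that dose. The median fold change of the list was 0.32, 0.24 and 0.29. Acsl3, which acts on long-chain fatty acids, rose by 2.69 ± 0.39, 2.21 ± 0.38 and 3.03 ± 0.39, to 138 ± 53.1, 115 ± 46.0 and 121 ± 50.9 CPM at 15 mg/kg, against 21.3 ± 5.75, 25.0 ± 6.59 and 14.8 ± 2.25 CPM in vehicle livers. Acsl1, the main long-chain enzyme of liver, rose by 0.96 ± 0.29, 1.20 ± 0.29 and 1.14 ± 0.29. The fatty acid transport proteins with synthetase activity Slc27a1 (2.25 ± 0.37, 1.54 ± 0.37 and 1.23 ± 0.36) and Slc27a2 (1.01 ± 0.15, 0.85 ± 0.15 and 1.02 ± 0.15) were called higher on each day. Slc27a5, which joins coenzyme A to bile acids, fell by 1.17 ± 0.28, 0.91 ± 0.28 and 1.65 ± 0.28.

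Markers of several liver cell types were called lower beside these genes, and the share of all genes tested called lower at 15 mg/kg was 7.21%, 10.2% and 8.31% on days 7, 14 and 28. At 1 mg/kg, where Vnn1 was called on each day, the summed level of 6 hepatocyte markers overlapped that of vehicle livers on each day. On day 7 it was 137956 to 173145 CPM at 1 mg/kg and 159266 to 261990.2 CPM in vehicle livers. On day 14 it was 133465 to 209132 CPM at 1 mg/kg and 121702 to 185815 CPM in vehicle livers. On day 28 it was 116383 to 162350 CPM at 1 mg/kg and 126771 to 203011 CPM in vehicle livers. The median log2 fold change of these markers at 1 mg/kg was -0.45, 0.03 and -0.44 on days 7, 14 and 28, and 0 of 6 were called. At 15 mg/kg on day 7, 6 of 6 were called lower, with a summed level of 73576 to 135063 CPM, below each vehicle liver of that day. On days 14 and 28, 5 and 4 of the 6 were called lower at 15 mg/kg, and the summed level on day 28 was 96995 to 135855 CPM at 15 mg/kg and 126771 to 203011 CPM in vehicle livers. At 5 mg/kg 3, 4 and 4 of the 6 were called lower on days 7, 14 and 28 (background 2.87%, 5.27% and 4.85%).

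Kupffer cell markers at 15 mg/kg were called lower for 2, 5 and 1 of 7 genes on days 7, 14 and 28, and on day 14 their summed level was 109 to 247.6 CPM at 15 mg/kg and 340 to 554 CPM in vehicle livers. Stellate cell markers were called lower for 3, 3 and 2 of 8 genes, with a summed level on day 14 of 191 to 339 CPM at 15 mg/kg and 433 to 552.7 CPM in vehicle livers. Stellate markers were also called lower for 3 of 8 genes at 1 mg/kg on day 14 (median log2 fold change -0.77, background 2.95%). Vnn1 and Coasy were called higher in that comparison. The 3 cholangiocyte markers had 1 call lower there and 1 call higher at 15 mg/kg on day 7 (background 6.77%). Of 5 endothelial markers, 1 was called lower at 15 mg/kg on day 14, and that was their single call in the 9 comparisons. Lymphocyte markers at 15 mg/kg were called lower for 1, 2 and 1 of 5 genes on days 7, 14 and 28. Erythroid markers were called lower for 3 of 4 genes at 15 mg/kg on day 7, with 27.1 to 219.7 CPM in all at 15 mg/kg and 134 to 1837 CPM in vehicle livers. Summed levels weigh most on the most abundant marker of a list. Averaged over the 60 libraries, this was Alb for hepatocytes (99451 CPM) and Clec4f for Kupffer cells (143.2 CPM). For stellate cells it was Col3a1 (232.5 CPM) and for erythroid cells Hbb (424.3 CPM). In whole liver, fewer cells of a type and less RNA per cell cannot be told apart, and the part of these markers in the coenzyme A genes was not tested.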

How the data were processed

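Liver RNA of 60 rats was measured as raw read counts per Ensembl gene, deposited by the authors as whole numbers for 32883 genes. Per the submitters' processing notes, bcl2fastq 2.20.0.422, Trimmomatic 0.33, STAR 2.5.2b and featureCounts of Subread 1.6.0 were used with build Rnor_6.0. Settings, strand use and annotation release are not given in the sources used here. The 10602 rows without a symbol held 1.39% of reads. Samples were grouped by the treatment labels, which give each rat's dose and day, and each animal is a biological replicate per the labels' design text. Within groups, the 120 pairs of libraries differed beyond sampling noise (chi-square over degrees of freedom of 17.3 or more), so each library counts once.

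Genes were filtered with filterByExpr (minimum count 10, minimum total 15) and scaled by TMM. A group-means model over 60 libraries (48 residual degrees of freedom) went into edgeR 4.0.16 (R 4.3.3), with robust dispersion estimates and quasi-likelihood F tests. Two-sided p-values received Benjamini-Hochberg adjustment across 12167 genes. Each SE was obtained from the log2 fold change and the F statistic. The library score is the mean of 500 genes (members left out) along the first axis of within-group residuals of log2 CPM (prior count 2). The group-means model without the library score was run on counts simulated gene by gene. That simulation had no shared axis within groups, so it does not test the results with the library score.

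Alternatives were DESeq2 size factors, the Wald test of DESeq2 1.42.0, voom of limma 3.58.1, no filter, only the libraries of the day, the library score as a covariate, leaving out the 3 libraries of score below -1.5, and leaving out each library in turn. For dose steps, changes between days and vehicle days, leaving out each library was chosen after seeing the data. The genes named are the members, the list genes called at 15 mg/kg on all 3 days or in opposite directions, and the 5 genes most like Vnn1, Pank1 and Nudt7. Slc25a17, Slc5a6, Csad, Cdo1, Dcakd, Nudt8 and Aasdhppt fall outside this rule and were named after their values were seen. The members and lists were chosen with earlier results of these data known.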

Additional observations from a re-analysis of the deposited data

Results flagged for a closer look

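In 11 of 108 groups of 5 libraries, over 6 members, the highest or lowest library lay far from the other 4 (gap over range above 0.71). This cut flags about 1 in 20 groups by chance if values are normal and groups independent. CPM values need not be normal and the members share libraries, so no excess is read from this count. For Vnn1 these were 649 CPM in library 2 at 5 mg/kg on day 7 (lowest), 1425 CPM in library 5 at 5 mg/kg on day 14 (highest) and 1446 CPM in library 3 at 15 mg/kg on day 14 (highest). For Nudt7 the highest libraries were library 4 at 1 mg/kg on day 14 with 151 CPM, library 3 at 15 mg/kg on day 14 with 774 CPM and library 2 at 15 mg/kg on day 28 with 555 CPM. Coasy had its highest library apart at 1 mg/kg on day 7 (60.9 CPM, library 5) and its lowest apart at 15 mg/kg on day 28 (40.6 CPM, library 2). Single high libraries were also seen for Pank2 at 15 mg/kg on day 7 (17.7 CPM, library 1), Pank4 at 1 mg/kg on day 7 (12.7 CPM, library 4) and Pank3 in vehicle livers of day 14 (68.4 CPM, library 2). Library 5 at 5 mg/kg and library 3 at 15 mg/kg on day 14 are also libraries of low library score.

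The effect of 1 mg/kg on Vnn1 was larger on day 28 than on day 7 by 1.6 on the log2 scale (adjusted p = 0.0106, edgeR), while the change from day 7 to day 14 was 0.05 ± 0.31 (adjusted p = 0.943).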

How the results depend on the processing

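Of the 25 calls against vehicle, 18 held under each alternative and in each refit without 1 library, including the 9 of Vnn1 and the 7 of Pank1. Members called at 15 mg/kg on day 7 were 4, and 2 with no filter, 2 with only that day's libraries and 2 to 3 without 1 library. At 1 mg/kg on day 14 they were 2, and 1 with only that day's libraries and 1 to 2 without 1 library. With the library score as a covariate the counts at 1, 5 and 15 mg/kg were 1, 4 and 4 on day 7, 3, 6 and 7 on day 14 and 3, 6 and 6 on day 28, each called higher. In either direction that model called 18.5% and 39.2% of all genes at 5 and 15 mg/kg on day 7. It called 12.7%, 31.5% and 42.1% at 1, 5 and 15 mg/kg on day 14 and 7.68%, 25.6% and 35.6% on day 28. The share at 1 mg/kg on day 7 is not given. Counts in 1 direction and shares in either direction are not like for like, so no excess is read from them. With the score the count was 2 for 5 against 1 mg/kg on day 28 (background 3.72%) and 1, called lower, for vehicle livers of day 28 against day 7 (background 0.888%). Without 1 library, the count was 2 to 5 for 5 against 1 mg/kg on day 14, 0 to 1 for that step on day 28, 0 to 1 for the change of the 1 mg/kg effect from day 7 to day 28, and 0 to 1 for vehicle livers of day 28 against day 7. Nudt7 at 1 mg/kg changed sign: on day 14 to 0.86 with the library score and 0.23 without vehicle library 4 (-0.51 to 0.23 over refits without 1 library), and on day 28 to -0.05, -0.06 and -0.07 without vehicle library 3, vehicle library 4 and 1 mg/kg library 4 (-0.07 to 0.52). The cause was not tested. Each library is a separate rat of a single dose and day and the labels give no pairing between groups, so no paired analysis was done. The SE of a comparison with vehicle was 0.15 for Pank2, Pank4 and Nudt19 and 0.54 to 0.57 for Nudt7, so read depth alone does not set the precision, and Ppcdc, with 1 read in all, was not tested.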
